A study of Mus with 21 samples.

Results

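The genes described here are 10 genes that give monoaminergic neurons their identity: *Tph2*, *Slc6a4*, *Fev*, *Th*, *Slc6a3*, *Pitx3*, *Nr4a2*, *Ddc*, *Slc18a2* and *Dbh*. They were chosen by name, as the entries of the count table with those symbols, and make up 10 of its 55335 genes. All 10 passed the filter on low counts that left 30552 genes for testing, and each was detected in every library.

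The study asked whether a lower dose of *Wapl*, which releases cohesin from chromatin, alters what the loss of 1 copy of *Nipbl*, the loader of cohesin, does to the mouse embryo. Poly(A) RNA was sequenced from whole brains of female embryos at E17.5, with 1 library per embryo. The groups were 5 *WT* embryos (*Wapl+/+*, *Nipbl+/+*), 7 *WaplΔ/+* embryos with both copies of *Nipbl*, 3 *Nipbl+/-* embryos with both copies of *Wapl*, and 6 double heterozygotes that carried 1 deleted copy of each. The *WaplΔ* allele lacks the promoter and the first exons in every cell, and the *Nipbl-* allele was made by Cre in the germ line of sires carrying *Stra8-icre*, so each deletion was constitutive and none was restricted to monoaminergic neurons. The litter and the cross of each embryo were not used here.

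Monoaminergic neurons make serotonin, dopamine or noradrenaline from an amino acid, load the product into vesicles, release it and take it up again. Their cell bodies are few and sit in small groups, serotonin neurons in the raphe nuclei of the hindbrain, most dopamine neurons in the ventral midbrain and hypothalamus, and noradrenaline neurons in the locus coeruleus and nearby hindbrain. Tryptophan hydroxylase starts the synthesis of serotonin and tyrosine hydroxylase that of both dopamine and noradrenaline, and each transmitter has its own uptake carrier, while the decarboxylase and the vesicular carrier are shared by all of them. In whole-brain RNA, fewer cells of a type and less RNA per cell cannot be told apart. Some of these genes are also used by other cells of the embryonic brain, such as *Nr4a2* by deep cortical neurons and *Slc6a4* and *Slc18a2* for a time by thalamic neurons that project to the cortex.

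Counts on genes ran from 25682566 to 35818767 per library. *Nipbl* stood at 55.2% ± 4.25 (SD, n = 3) of the *WT* mean in *Nipbl+/-* brains and at 55.4% ± 1.80 (SD, n = 6) in double heterozygotes, and *Wapl* at 47.2% ± 4.42 (SD, n = 7) in *WaplΔ/+* brains and at 49.9% ± 1.75 (SD, n = 6) in double heterozygotes, so the targeted genes matched the labels. The libraries fall into a set of 12 with under 20 counts of the mitochondrial gene *mt-Nd3* and a set of 9 with more, which hold all 3 *Nipbl+/-* libraries on the low side and are spread over the other groups. In the *WaplΔ/+* and double-heterozygote groups the labels write the *Wapl* deletion before the wild-type allele in all 6 low libraries and after it in all 7 high ones, so the *mt-Nd3* set and the order of the labelled alleles cannot be told apart there. The *Hox* genes of the hindbrain and spinal cord summed to 33.9% of the *WT* mean in *Nipbl+/-* replicate 1 and to between 83.2% and 167% in the other 20 libraries. Genes of peripheral ganglia summed to 196% of the *WT* mean in *WaplΔ/+* replicate 4 and 178% in double-heterozygote replicate 4, and to between 90.3% and 126% in the other 19 libraries. Several values that rest on these libraries are given below with and without them, and some as a range over fits that left out 1 library at a time. Not every value is given without them. Shares of all genes called are from fits with all libraries of the groups compared, unless another setting is named. Counts below are normalized for library size, and a gene was called when its Benjamini-Hochberg adjusted *P* over all tested genes, from edgeR's quasi-likelihood test, was below 0.10.

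In *Nipbl+/-* brains, *Nr4a2* and *Slc6a3* were lower and *Ddc* was higher than in *WT* brains. The 3 called members of 10 compare with 11.2% of all tested genes called in this comparison, 6.96% lower and 4.25% higher. Many tested genes had few reads. With a filter of 1 CPM in 3 libraries, which *Fev* and *Pitx3* did not pass, 4 members and 4064 of 17919 genes were called. In double heterozygotes *Nr4a2* and *Slc6a3* were again lower, 2 called members of 10, where 3.28% of all genes were called and 2.46% were called lower. With the filter of 1 CPM in 3 libraries, 2 members and 1223 of 17919 genes were called there. In *WaplΔ/+* brains none of the 10 was called by edgeR, where 2.22% of genes were called, while 3 of them, *Ddc*, *Dbh* and *Slc18a2*, had an unadjusted *P* under 0.05. DESeq2 called none of the 6 members to which it gave an adjusted *P* there, *Dbh* not among them, and 4.73% of all genes. The median log2 fold change of the 10 genes was 0.03 in *Nipbl+/-* brains, 0.09 in *WaplΔ/+* brains and -0.04 in double heterozygotes, beside -0.01, 0.00 and 0.00 for all tested genes. The 3 comparisons share the *WT* libraries.

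**Figure D1:**
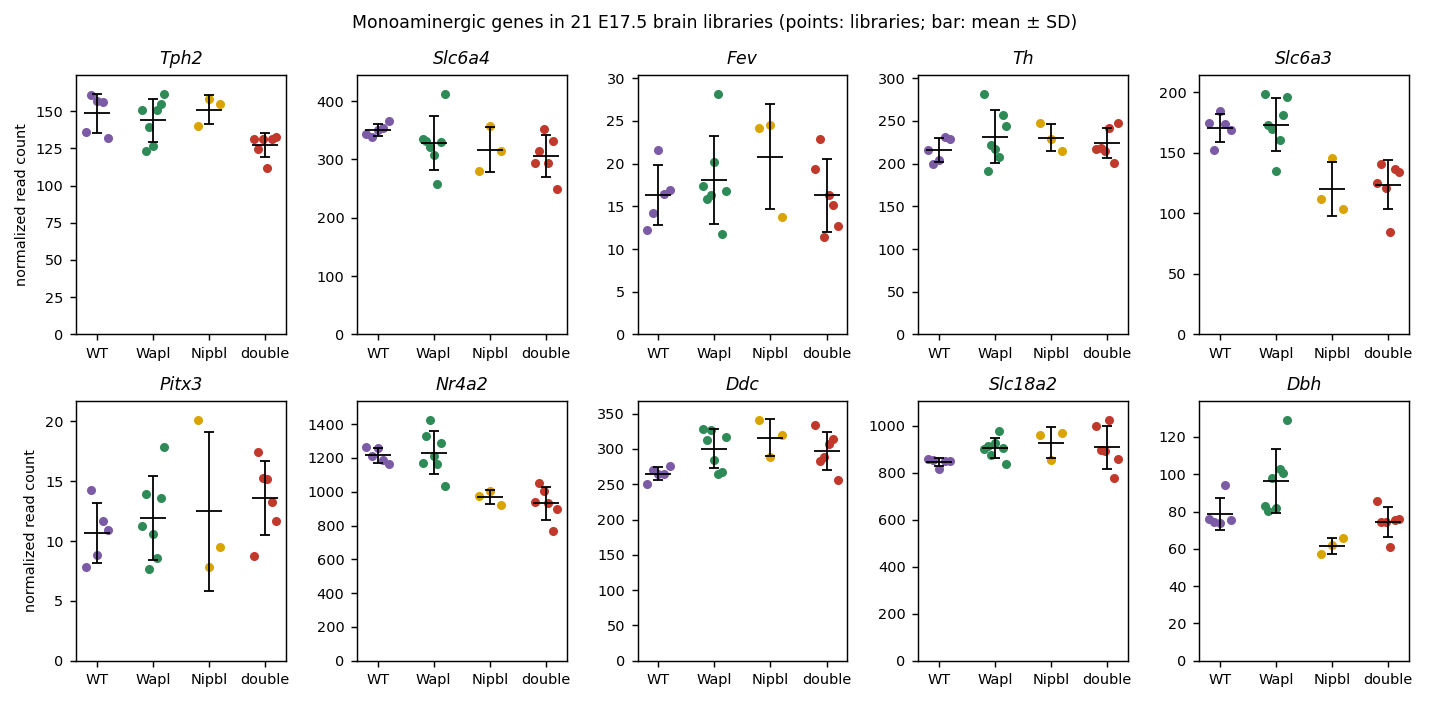
Normalized read count (linear axis from 0) of each of the 10 genes in the 21 libraries, by group (*WT*, *WaplΔ/+*, *Nipbl+/-*, double heterozygotes); points are libraries and bars are the mean ± SD. *Nr4a2* and *Slc6a3* are the genes for which the *Nipbl+/-* and the double-heterozygote libraries all lie below the *WT* libraries.

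*Nr4a2* (chromosome 2, 57106830 to 57124003 on GRCm38.p6), also called Nurr1, encodes an orphan nuclear receptor that midbrain dopamine neurons need to form and to switch on their transmitter genes. Its normalized counts were 1264, 1214, 1257, 1186 and 1163 in the 5 *WT* brains and 975, 1005 and 925 in the 3 *Nipbl+/-* brains. In double heterozygotes they ran from 770 to 1051 with a median of 937, and in *WaplΔ/+* brains from 1036 to 1424 with a median of 1211. All 9 libraries with the *Nipbl* deletion lay below all 5 *WT* libraries, which 5.59% of tested genes showed for the 3 *Nipbl+/-* and 1.83% for the 6 double-heterozygote libraries, and 8 of the 9 also lay below all 7 *WaplΔ/+* libraries.

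The group means of *Nr4a2* were 1217 ± 43.8 (SD, n = 5) in *WT*, 1231 ± 128 (SD, n = 7) in *WaplΔ/+*, 968 ± 40.5 (SD, n = 3) in *Nipbl+/-* and 932 ± 96.7 (SD, n = 6) in double heterozygotes. Against *WT*, the log2 fold change was -0.36 (standard error 0.0471, adjusted *P* = 0.000182 from edgeR) in *Nipbl+/-* brains and -0.39 (standard error 0.0596, adjusted *P* = 0.00159 from edgeR) in double heterozygotes. With 1 library left out at a time, the value ran from -0.39 to -0.32 in *Nipbl+/-* brains, with an edgeR adjusted *P* of at most 0.0018. In double heterozygotes it ran from -0.43 to -0.34, with an edgeR adjusted *P* of at most 0.00956. In *WaplΔ/+* brains *Nr4a2* differed from *WT* by 0.01 (95% interval -0.12 to 0.13). Double heterozygotes and *Nipbl+/-* brains differed by -0.04 (95% interval -0.21 to 0.12), so a difference of the size seen against *WT* lay outside the interval. In the order *WaplΔ/+*, *WT*, *Nipbl+/-*, double heterozygotes, the step from *WT* to *Nipbl+/-* was the step at which the libraries of neighbouring groups did not overlap.

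*Slc6a3* (chromosome 13, 73536128 to 73578672) encodes the dopamine transporter DAT, which returns released dopamine to the neuron and is found in few cells other than dopamine neurons. Its normalized counts were 175, 153, 185, 174 and 169 in *WT* brains and 112, 145 and 104 in *Nipbl+/-* brains. They ran from 84.6 to 141 with a median of 130 in double heterozygotes, and from 135 to 199 with a median of 173 in *WaplΔ/+* brains. Here too, each of the 9 libraries with the *Nipbl* deletion lay below each *WT* library, and *WaplΔ/+* replicate 4, at 135, was the library without that deletion that came among them. Such a separation from *WT* was shown by 5.59% of tested genes for the *Nipbl+/-* and 1.83% for the double-heterozygote libraries.

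The means of *Slc6a3* were 171 ± 11.7 (SD, n = 5) in *WT*, 173 ± 21.9 (SD, n = 7) in *WaplΔ/+*, 120 ± 22.1 (SD, n = 3) in *Nipbl+/-* and 124 ± 20.6 (SD, n = 6) in double heterozygotes. Against *WT*, *Slc6a3* had log2 fold changes of -0.53 (standard error 0.116, adjusted *P* = 0.0076 from edgeR) in *Nipbl+/-* and -0.47 (standard error 0.105, adjusted *P* = 0.0266 from edgeR) in double heterozygotes. *WaplΔ/+* brains differed from *WT* by 0.01 (95% interval -0.17 to 0.19) and double heterozygotes from *Nipbl+/-* by 0.05 (95% interval -0.27 to 0.38). Double-heterozygote replicate 4 was the lowest library of all at 84.6, and *WaplΔ/+* replicate 4 was the lowest of its group, and these are the libraries with the high sums of ganglion genes, whose part in the values was not tested. Without double-heterozygote replicate 4 the log2 fold change of *Slc6a3* against *WT* was -0.38 (adjusted *P* = 0.0329 from edgeR), and without *WaplΔ/+* replicate 4 the value in *WaplΔ/+* brains was 0.06. In *Nipbl+/-* brains the value ran from -0.69 to -0.43 with 1 library left out at a time, with an edgeR adjusted *P* of at most 0.0507.

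*Nr4a2* and *Slc6a3* were also the members called between double heterozygotes and *WaplΔ/+* brains, both lower, in a comparison with 1.02% of genes called and 0.812% called lower. There, *Nr4a2* had a value of -0.40 on the log2 scale (standard error 0.0739, edgeR adjusted *P* = 0.0125), and *Slc6a3* of -0.48 (standard error 0.107, edgeR adjusted *P* = 0.048). Without double-heterozygote replicate 4 the value of *Slc6a3* was -0.39 (adjusted *P* = 0.0886), and without *WaplΔ/+* replicate 4 it was -0.53 (adjusted *P* = 0.0202). The call of *Slc6a3* was lost without *WaplΔ/+* replicate 6, without *WaplΔ/+* replicate 7 and without double-heterozygote replicate 1, with adjusted *P* between 0.105 and 0.107, and with a term for the *mt-Nd3* sets (adjusted *P* = 0.114). Within the low *mt-Nd3* set alone, *Nr4a2* had a log2 fold change against *WT* of -0.40 in *Nipbl+/-* brains and -0.35 in double heterozygotes, and *Slc6a3* of -0.54 in each, all 4 with an adjusted *P* below 0.10.

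**Figure D2:**
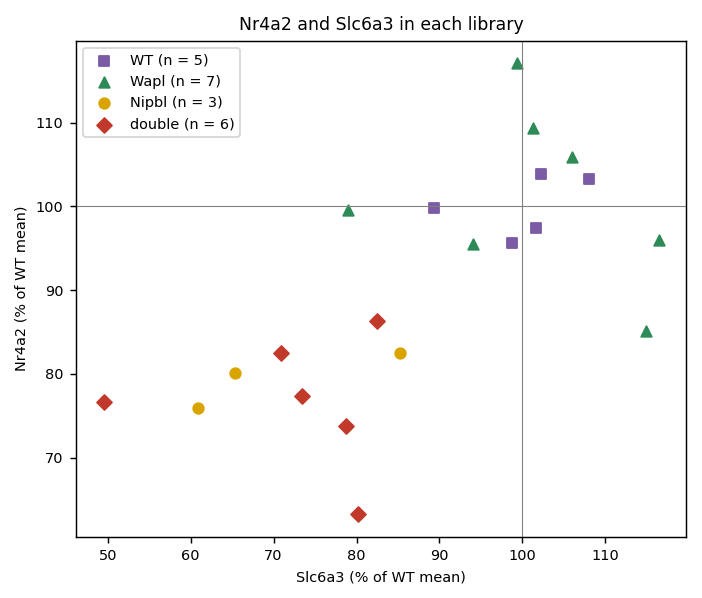
*Nr4a2* against *Slc6a3* in each of the 21 libraries, both as percent of the *WT* mean (grey lines at 100%), with 1 symbol per group. The 9 libraries with the *Nipbl* deletion lie at 49.6% to 85.2% for *Slc6a3* and 63.3% to 86.4% for *Nr4a2*, below every *WT* library on both axes.

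Both genes were lower in the same groups, but no relation between them was detected from embryo to embryo within a group. Their deviations from the group means gave a Pearson *r* of -0.0629 and a Spearman rho of 0.0182 over 21 libraries (permutation *P* = 0.782 and 0.939, 45 pairs of members examined, adjusted *P* = 0.921 and 0.983), and *r* was -0.109 without the 2 libraries farthest from the median of *Slc6a3*. Within the *mt-Nd3* sets *r* was 0.327 over the 12 low and -0.395 over the 9 high libraries. Double-heterozygote replicate 5, for instance, had the lowest *Nr4a2* of all libraries, 770, and a *Slc6a3* count of 137 that was among the highest of its group.

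*Th* and *Pitx3* are also genes of midbrain dopamine neurons, *Th* of noradrenaline neurons too, and were not called in any comparison. *Th* (chromosome 7, 142892779 to 142899995) encodes tyrosine hydroxylase, the rate-limiting enzyme for dopamine and noradrenaline. Its counts were 216, 199, 204, 231 and 229 in *WT* brains and 247, 229 and 215 in *Nipbl+/-* brains, and ran from 201 to 248 with a median of 218 in double heterozygotes and from 192 to 282 with a median of 222 in *WaplΔ/+* brains. The 4 groups overlapped throughout. Against *WT*, *Th* differed on the log2 scale by 0.07 (95% interval -0.11 to 0.24) in *Nipbl+/-* brains and 0.04 (95% interval -0.11 to 0.19) in double heterozygotes, intervals that do not reach the values of *Slc6a3*, and 0.09 (95% interval -0.08 to 0.27) in *WaplΔ/+* brains.

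*Pitx3* (chromosome 19, 46135281 to 46148325) encodes a homeodomain factor on which the dopamine neurons of the substantia nigra depend. It had between 7 and 20 reads per library, too few for a change of moderate size to be seen. The mean normalized count was 10.7 ± 2.5 (SD, n = 5) in *WT*, 11.9 ± 3.49 (SD, n = 7) in *WaplΔ/+*, 12.5 ± 6.64 (SD, n = 3) in *Nipbl+/-* and 13.6 ± 3.09 (SD, n = 6) in double heterozygotes. The 95% interval of the log2 fold change in *Nipbl+/-* brains, -0.51 to 0.92, spans a fall as large as that of *Slc6a3*, and *Nipbl+/-* replicate 1, at 20.1, stood far above replicates 2 and 3, at 7.86 and 9.54. Without that replicate the log2 fold change was -0.31 in place of 0.20.

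The serotonin genes *Tph2*, *Slc6a4* and *Fev* were not called in any comparison between groups. *Tph2* (chromosome 10, 115078641 to 115185022) encodes the tryptophan hydroxylase of the brain, the enzyme that commits tryptophan to serotonin. Its counts were 136, 161, 157, 156 and 132 in *WT* brains and 140, 158 and 155 in *Nipbl+/-* brains. They ran from 123 to 162 with a median of 151 in *WaplΔ/+* brains and from 112 to 132 with a median of 131 in double heterozygotes. The double heterozygotes were the lowest group, with all 6 libraries below the 3 *Nipbl+/-* libraries, which 1.59% of tested genes also showed, and 5 of 6 below every *WT* library.

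The log2 fold change of *Tph2* in double heterozygotes was -0.23 against *WT* (95% interval -0.40 to -0.05, adjusted *P* = 0.214 from edgeR) and -0.23 against *Nipbl+/-* (95% interval -0.44 to -0.02, adjusted *P* = 0.971 from edgeR). In the comparison with *Nipbl+/-* brains no member was called by edgeR or DESeq2. By edgeR 1 had an unadjusted *P* under 0.05 and 0.00655% of all genes were called, and by DESeq2 these were 0 and 0.0164%. In *Nipbl+/-* brains the log2 fold change of *Tph2* against *WT* was -0.00 (95% interval -0.22 to 0.21), and 0.05 without replicate 1.

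*Slc6a4* (chromosome 11, 76998597 to 77032343) encodes the serotonin transporter SERT, which clears serotonin from the extracellular space. Its counts were 344, 338, 350, 353 and 366 in *WT* brains and 279, 357 and 314 in *Nipbl+/-* brains. They ran from 257 to 412 with a median of 329 in *WaplΔ/+* brains and from 249 to 353 with a median of 304 in double heterozygotes. The *WT* libraries lay close together, with a coefficient of variation of 3.04%, and in the mutant groups it ran from 11.8% to 14%.

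The mean of *Slc6a4* was below *WT* in all mutant groups, with log2 fold changes of -0.11 (adjusted *P* = 0.55 from edgeR) in *WaplΔ/+*, -0.17 (adjusted *P* = 0.218) in *Nipbl+/-* and -0.20 (adjusted *P* = 0.227) in double heterozygotes. The call depended on single libraries: in *Nipbl+/-* brains the log2 fold change was -0.27 without replicate 2 (adjusted *P* = 0.0333) and -0.09 without replicate 1 (adjusted *P* = 0.682), and in double heterozygotes it was called without replicate 3 (-0.25, adjusted *P* = 0.0611) and without replicate 5 (-0.22, adjusted *P* = 0.098).

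*Fev* (chromosome 1, 74881501 to 74885473), also called Pet-1, encodes the ETS factor that defines serotonin neurons and drives *Tph2* and *Slc6a4*. It had 12 to 25 reads per library. Its mean was 16.3 ± 3.51 (SD, n = 5) in *WT*, 18.1 ± 5.11 (SD, n = 7) in *WaplΔ/+*, 20.8 ± 6.10 (SD, n = 3) in *Nipbl+/-* and 16.3 ± 4.28 (SD, n = 6) in double heterozygotes. The log2 fold change of *Fev* in *Nipbl+/-* brains was 0.34, and 0.23 without replicate 1 (adjusted *P* = 0.802 from edgeR), and with 1 library left out at a time it ran from 0.20 to 0.56. The 95% interval, -0.21 to 0.88, leaves a wide range that this depth could not resolve.

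*Dbh* (chromosome 2, 27165507 to 27183204) encodes dopamine beta-hydroxylase, which turns dopamine into noradrenaline and marks noradrenergic neurons. Its counts were 75.9, 74.2, 73.6, 94.1 and 75.4 in *WT* brains and 57.3, 61.9 and 65.7 in *Nipbl+/-* brains. They ran from 80.5 to 129 with a median of 97.8 in *WaplΔ/+* brains and from 60.8 to 85.5 with a median of 75.0 in double heterozygotes. *Nipbl+/-* libraries lay below all *WT* libraries, which 5.59% of tested genes also showed. *WaplΔ/+* libraries lay above 4 of the 5 *WT* libraries, and the double heterozygotes lay around *WT*.

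The log2 fold change of *Dbh* was -0.38 (95% interval -0.67 to -0.10, adjusted *P* = 0.103 from edgeR) in *Nipbl+/-*, 0.28 (95% interval 0.03 to 0.53, adjusted *P* = 0.265) in *WaplΔ/+* and -0.08 (95% interval -0.31 to 0.15, adjusted *P* = 0.818) in double heterozygotes. The value in *Nipbl+/-* brains stood beside the threshold: it was called with a filter of 1 CPM in 3 libraries (adjusted *P* = 0.0696) and without *WT* replicate 3 (adjusted *P* = 0.0991). Without *Nipbl+/-* replicate 1, the library with few *Hox* reads, it was -0.33 (adjusted *P* = 0.325), and in the low *mt-Nd3* set alone -0.31 (adjusted *P* = 0.315). Against *WaplΔ/+* brains, double heterozygotes had a log2 fold change of -0.36 (95% interval -0.61 to -0.12, adjusted *P* = 0.237), and against *Nipbl+/-* brains of 0.29 (95% interval -0.00 to 0.58, adjusted *P* = 0.971).

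*Ddc* and *Slc18a2* serve all monoaminergic neurons. *Ddc* (chromosome 11, 11814101 to 11898144) encodes aromatic L-amino acid decarboxylase, which makes dopamine from L-DOPA and serotonin from 5-hydroxytryptophan. Its counts were 250, 269, 265, 265 and 276 in *WT* brains and 341, 288 and 319 in *Nipbl+/-* brains. They ran from 265 to 328 with a median of 313 in *WaplΔ/+* brains and from 256 to 333 with a median of 298 in double heterozygotes. All *Nipbl+/-* libraries, as for 9.08% of tested genes, 5 of 7 *WaplΔ/+* libraries and 5 of 6 double heterozygotes lay above every *WT* library.

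On the log2 scale *Ddc* differed from *WT* by 0.22 (standard error 0.075, adjusted *P* = 0.0798 from edgeR) in *Nipbl+/-*, 0.17 (standard error 0.0655, adjusted *P* = 0.213) in *WaplΔ/+* and 0.16 (standard error 0.0685, adjusted *P* = 0.289) in double heterozygotes. The call in *Nipbl+/-* brains was weak: leaving out 1 library at a time, 7 of 8 fits lost it, with adjusted *P* between 0.101 (without *WT* replicate 5) and 0.35 (without *Nipbl+/-* replicate 1), and without *Nipbl+/-* replicate 2 it was 0.0226. It was also lost in the low *mt-Nd3* set alone, where the log2 fold change was 0.24 (adjusted *P* = 0.182).

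*Slc18a2* (chromosome 19, 59260878 to 59296012) encodes the vesicular monoamine transporter VMAT2, which fills synaptic vesicles. Its counts were 858, 852, 814, 848 and 851 in *WT* brains and 960, 852 and 969 in *Nipbl+/-* brains. They ran from 836 to 976 with a median of 903 in *WaplΔ/+* brains and from 779 to 1023 with a median of 892 in double heterozygotes. The coefficient of variation was 2.08% in *WT* and 9.99% in double heterozygotes. The log2 fold change was 0.10 (95% interval -0.00 to 0.21) in *Nipbl+/-*, 0.08 (95% interval 0.00 to 0.17) in *WaplΔ/+* and 0.10 (95% interval -0.02 to 0.22) in double heterozygotes, with adjusted *P* between 0.268 and 0.495 from edgeR. Without *Nipbl+/-* replicate 2 the value in *Nipbl+/-* brains was 0.16 and was called (adjusted *P* = 0.036).

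**Figure D3:**
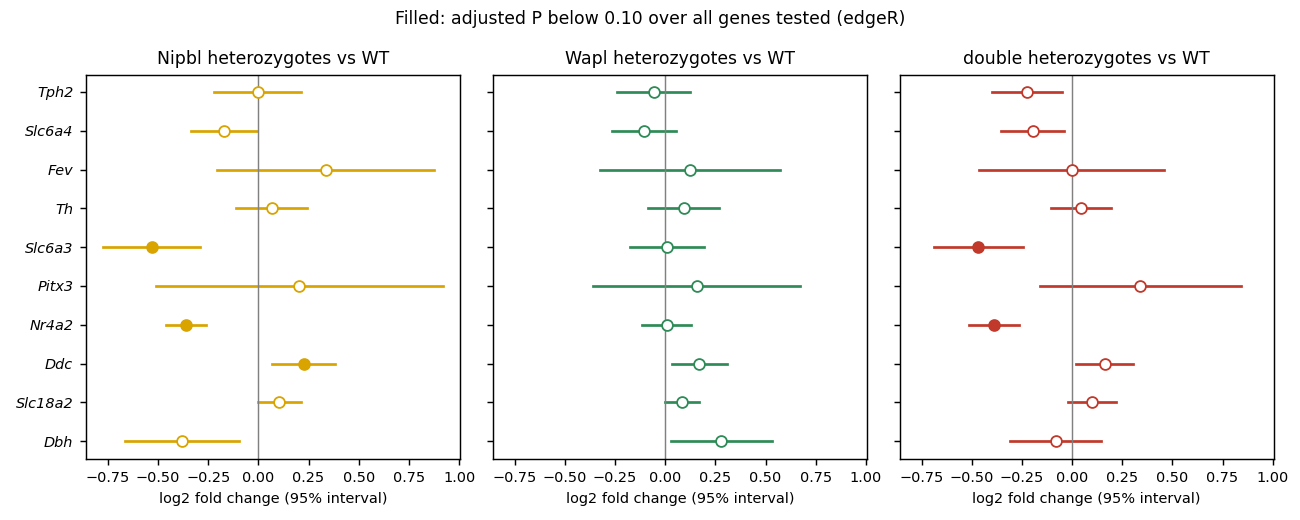
Log2 fold change against *WT* of the 10 genes in *Nipbl+/-*, *WaplΔ/+* and double-heterozygote brains, with 95% intervals; filled points were called (edgeR adjusted *P* below 0.10). *Slc6a3* and *Nr4a2* are called on the left of 0 in *Nipbl+/-* brains (-0.53 and -0.36) and in double heterozygotes (-0.47 and -0.39), and the widest intervals belong to *Pitx3* and *Fev*.

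Between embryos of 1 group, 7 of the 10 genes varied least in *WT*, as judged by the coefficient of variation, all but *Tph2*, *Dbh* and *Pitx3*. Among the 19658 tested genes with a mean of at least 10 in every group, 43.7% varied least in *WT*. The coefficient in *WT* ran from 2.08% for *Slc18a2* to 23.4% for *Pitx3*, and for *Slc6a4*, *Ddc* and *Slc18a2* the SD in *WT* was below that of Poisson counting, 0.569, 0.59 and 0.604 times as large. In double heterozygotes the SD was 3.17 times that of counting for *Nr4a2* and 3.01 times for *Slc18a2*.

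Each gene was also followed with the *Nipbl* and *Wapl* deletions as separate terms over all 21 libraries, a fit added after the groups had been compared. With the *Nipbl* deletion, in 9 embryos against 12, *Nr4a2* (-0.38, standard error 0.0498, adjusted *P* = 2.52e-05), *Slc6a3* (-0.49, standard error 0.0826, adjusted *P* = 0.000479) and *Dbh* (-0.36, standard error 0.0869, adjusted *P* = 0.0156) were lower by edgeR's quasi-likelihood test, and 4.67% of all genes were called. *Ddc* had a value of 0.08 (adjusted *P* = 0.559) and was not called in that fit. For the *Wapl* deletion, in 13 of the 21 embryos, no member was called and 0.0196% of genes were, and the member with the smallest *P* was *Dbh* (0.29, 95% interval 0.10 to 0.47, adjusted *P* = 0.684 from edgeR).

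A term for the interaction of the deletions asked whether the effect of 1 depended on the other. By edgeR it was called for none of the 10 genes, 1 had an unadjusted *P* under 0.05, and 0% of all genes were called. DESeq2 called 2.6% of all genes for this term, and gave an adjusted *P* to 2 of the 10, *Slc18a2* and *Nr4a2*, neither of which was called. The gene with the small unadjusted *P* was *Ddc*, with a log2 interaction of -0.27 (95% interval -0.49 to -0.05, adjusted *P* = 0.264 from edgeR). In 1 fit of all groups, *Ddc* differed from *WT* by 0.25 in *Nipbl+/-*, 0.18 in *WaplΔ/+* and 0.17 in double-heterozygote brains, and the interaction is the last value less the sum of the others. For *Nr4a2* the interaction was -0.07 (95% interval -0.28 to 0.14) and for *Slc6a3* 0.02 (95% interval -0.34 to 0.38).

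The 16 other genes of monoamine synthesis, transport and breakdown were largely not called. In *Nipbl+/-* brains 0 were higher and 3 lower: *Aldh1a1* (-0.60, adjusted *P* = 0.00259 from edgeR), an aldehyde dehydrogenase that marks a group of dopamine neurons of the substantia nigra, *Slc6a2* (-0.35, adjusted *P* = 0.0232), the noradrenaline transporter, and *Maoa* (-0.21, adjusted *P* = 0.0133), which breaks down serotonin and noradrenaline. In double heterozygotes 0 were higher and 2 lower, *Aldh1a1* (-0.57, adjusted *P* = 0.00736) and *Slc6a2* (-0.29, adjusted *P* = 0.0525), and *Aldh1a1* was also lower than in *WaplΔ/+* brains (-0.62, adjusted *P* = 0.00755). Of all tested genes, 6.96% were called lower in *Nipbl+/-* brains and 2.46% in double heterozygotes. In *WaplΔ/+* brains none of the 16 was called. Without *Nipbl+/-* replicate 1, *Maoa* was still called in *Nipbl+/-* brains (-0.17, adjusted *P* = 0.0955 from edgeR). *Slc6a2* was no longer called without *Nipbl+/-* replicate 1 (-0.29, adjusted *P* = 0.147) or without double-heterozygote replicate 4 (-0.27, adjusted *P* = 0.128), while *Aldh1a1* was called without either (-0.67 and -0.53, adjusted *P* = 0.00533 and 0.0230 from edgeR). The genes that make the cofactor tetrahydrobiopterin, such as *Gch1* (0.04 in *Nipbl+/-*, adjusted *P* = 0.906 from edgeR), were not called, and the median of the list was -0.04 in *Nipbl+/-* brains and -0.03 in double heterozygotes.

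The normalized count of *Aldh1a1* was 267 ± 32.2 (SD, n = 5) in *WT*, 180 ± 25.6 (SD, n = 3) in *Nipbl+/-* and 180 ± 29.2 (SD, n = 6) in double heterozygotes, and that of *Slc6a2* 225 ± 14.5 (SD, n = 5), 180 ± 13.8 (SD, n = 3) and 184 ± 16.5 (SD, n = 6). For dopamine and for noradrenaline, the uptake carrier was thus called lower in both groups with the *Nipbl* deletion with all libraries in the fit, while *Th* was not called in either.

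Among the regulators of serotonin neurons, no gene was called lower in the groups with the *Nipbl* deletion. Of 7 genes, 4 rose and 0 fell in *Nipbl+/-* brains: *Gata3* (0.40, adjusted *P* = 0.00224 from edgeR), *Insm1* (0.38, adjusted *P* = 0.00314), *Gata2* (0.38, adjusted *P* = 0.0111) and *Lmx1b* (0.29, adjusted *P* = 0.0916), where 4.25% of all genes were called higher. Without *Nipbl+/-* replicate 1 the same 4 were called, at 0.31 to 0.37 with adjusted *P* between 0.0165 and 0.0929. In double heterozygotes *Gata3* (0.33, adjusted *P* = 0.0213), *Insm1* (0.35, adjusted *P* = 0.048) and *Gata2* (0.31, adjusted *P* = 0.0559) rose and 0 fell, where 0.812% of all genes were called higher. Without double-heterozygote replicate 4, *Gata3* was called (0.31, adjusted *P* = 0.0600), and *Insm1* (0.32, adjusted *P* = 0.120) and *Gata2* (0.31, adjusted *P* = 0.119) were not. *Gata2* and *Gata3* are zinc-finger factors needed for serotonin neurons and also for midbrain inhibitory neurons and blood cells, and *Insm1* is a zinc-finger factor of newborn neurons in general. The median of the list was 0.38 in *Nipbl+/-* brains, 0.18 in *WaplΔ/+* brains, where none was called, and 0.24 in double heterozygotes.

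Of 11 regulators and receptors of midbrain dopamine neurons, 5 rose and 3 fell in *Nipbl+/-* brains, where 4.25% of all genes were called higher and 6.96% lower. The patterning factors were among those that rose, *Foxa1* by 0.50 (adjusted *P* = 0.0146 from edgeR), *En1* by 0.33 (adjusted *P* = 0.0465), *En2* by 0.29 (adjusted *P* = 0.0512) and *Otx2* by 0.23 (adjusted *P* = 0.0745). The 3 that fell were *Ret* (-0.25, adjusted *P* = 0.00888), the receptor for GDNF, *Kcnj6* (-0.38, adjusted *P* = 0.0218), a potassium channel of nigral neurons, and *Sox6* (-0.32, adjusted *P* = 0.033), a factor of nigral dopamine neurons and of cortical interneurons. In double heterozygotes *En1* (0.31, adjusted *P* = 0.0441), *En2* (0.31, adjusted *P* = 0.0499) and *Otx2* (0.25, adjusted *P* = 0.0639) rose and *Kcnj6* (-0.31, adjusted *P* = 0.0654) fell, where 0.812% of all genes were called higher and 2.46% lower. In *WaplΔ/+* brains none was called. Most of these calls were lost in a fit without 1 library, which also leaves fewer libraries in the group. Without *Nipbl+/-* replicate 1, *Foxa1* was called higher (0.46, adjusted *P* = 0.0748 from edgeR) and *Ret* lower (-0.19, adjusted *P* = 0.0711). The other 6 were not called, with *En1* at 0.17, *En2* 0.13, *Otx2* 0.16, *Lmx1a* 0.18, *Kcnj6* -0.31 and *Sox6* -0.27. Without double-heterozygote replicate 4, *En1* was called (0.31, adjusted *P* = 0.0924 from edgeR). The other 3 were not, with *En2* at 0.27, *Otx2* 0.24 and *Kcnj6* -0.26. The shares of all genes called in these fits are not given here. None of these genes is restricted to dopamine neurons. Of 4 regulators of noradrenaline neurons 3 passed the filter, and 0 were called in any comparison.

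**Figure D4:**
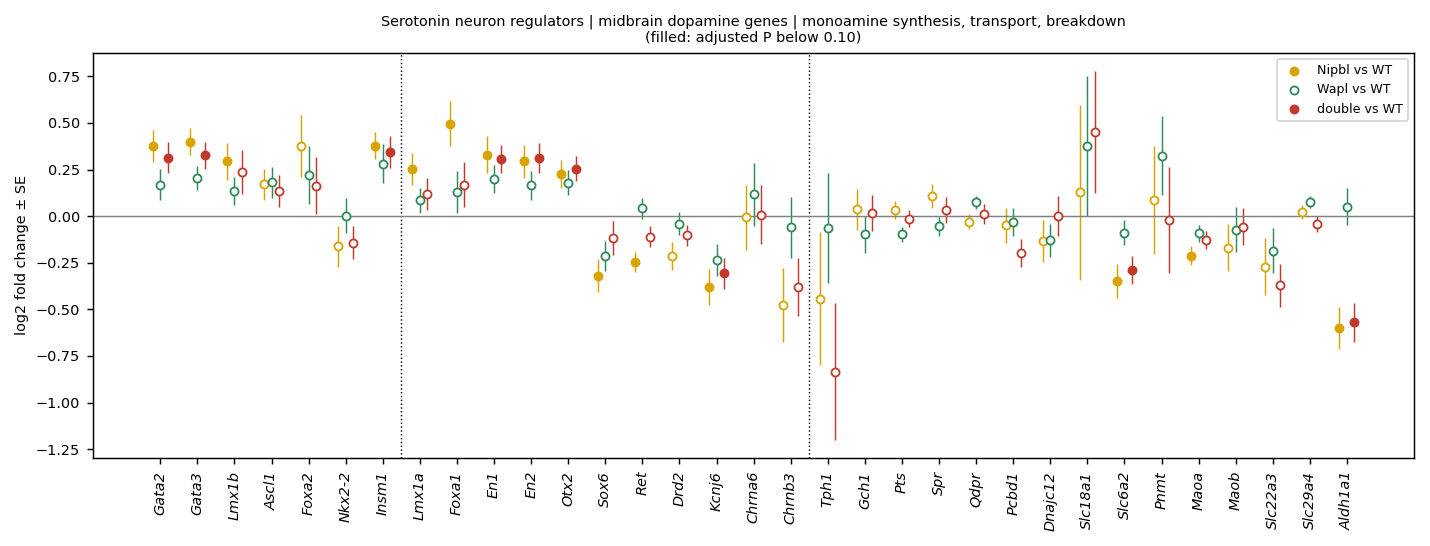
Log2 fold change against *WT* (± standard error) of 7 serotonin neuron regulators, 11 midbrain dopamine genes and other genes of monoamine synthesis, transport and breakdown, in *Nipbl+/-*, *WaplΔ/+* and double-heterozygote brains; filled points were called (edgeR adjusted *P* below 0.10). No *WaplΔ/+* point is filled, the called serotonin regulators lie above 0, and *Slc6a2* and *Aldh1a1* lie below 0 in both groups with the *Nipbl* deletion.

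Marker lists of other cells were examined in the same groups. For this list and those below, 4.25% of all tested genes were called higher and 6.96% lower in *Nipbl+/-* brains. In double heterozygotes these shares were 0.812% and 2.46%. They come from the fits with all libraries and are not the background of counts from fits without 1 library, for which no share is given here. Of 6 genes of all neurons, 0 rose and 3 fell in *Nipbl+/-* brains (*Nefl* -0.27, *Syt1* -0.27 and *Snap25* -0.15, adjusted *P* = 0.000206, 0.00231 and 0.0562 from edgeR), with a list median of -0.13, and *Syt1* alone fell in double heterozygotes (-0.19, adjusted *P* = 0.0216). The summed count of the 6 ran from 91.2% to 100% of the *WT* mean in *Nipbl+/-* brains and from 92.8% to 111% in double heterozygotes. Without *Nipbl+/-* replicate 1, *Nefl* (-0.26) and *Syt1* (-0.24) were called and *Snap25* (-0.09, adjusted *P* = 0.322) was not. The part of neuronal content in the values of *Nr4a2* and *Slc6a3* was not tested.

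Mast cells hold serotonin and use *Slc18a2*. Of 9 mast cell and platelet genes, the proteases *Cma1* (2.32 and 2.0), *Cpa3* (1.58 and 1.30) and *Tpsb2* (1.44 and 1.0) rose in *Nipbl+/-* and in double-heterozygote brains, with adjusted *P* between 0.00149 and 0.0477 from edgeR, and *Kit* (-0.17 and -0.15), which neurons also express, fell. The 3 proteases summed to 17.46 to 40.7 normalized counts in *WT*, 9.80 to 19.3 in *WaplΔ/+*, 30.2 to 163 in *Nipbl+/-* and 36.9 to 95.3 in double heterozygotes. The whole list, which *Kit* dominates, summed to 3062 to 3261 in *WT* and 2900 to 2980 in *Nipbl+/-* brains. The part of mast cells in the values of *Slc18a2* and *Ddc* was not tested.

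Lists for tissues at the edge of the dissection were examined in the same way. Of 8 *Hox* genes 0 were called in *Nipbl+/-* brains, 2 were called higher there without replicate 1 (*Hoxb5* 0.39 and *Hoxa3* 0.38), and *Hoxb3* rose in double heterozygotes (0.39, adjusted *P* = 0.0607 from edgeR). Of 6 genes of peripheral ganglia, *Prdm12* and *Isl1* rose in *Nipbl+/-* brains (0.37 and 0.19, adjusted *P* = 0.0544 and 0.0881) and *Prdm12* and *Pou4f1* in double heterozygotes (0.47 and 0.37, adjusted *P* = 0.0848 and 0.0415). Without *Nipbl+/-* replicate 1, *Prdm12* and *Isl1* were not called (adjusted *P* = 0.279 and 0.398) and *Pou4f1* was (0.26, adjusted *P* = 0.0880), and without double-heterozygote replicate 4 none of the 6 was called (*Prdm12* and *Pou4f1* adjusted *P* = 0.192 and 0.101). Of 4 pineal genes, *Tph1* among them, 0 were called in any comparison. Of 8 pituitary genes, *Gh* was called, lower in *WaplΔ/+* brains than in *WT* and in double heterozygotes, and the list summed to 74.7 to 2834 within *WT*, where *Gh* made up most of the highest value. The part of these tissues in the values of the 10 genes was not tested.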

How the data were processed

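The data are raw counts of read pairs on genes for 21 libraries of 101 bp paired-end, poly(A) RNA from E17.5 mouse brains. The authors removed adapters with cutadapt 2.4, aligned read pairs to mm10 (GRCm38.p6) using STAR 2.5.3a, counted them with featureCounts of Subread 1.6.4, checked quality with MultiQC 1.9 and deposited the counts without normalization. The annotation, strand setting and handling of reads on several genes are not given in the sources used here. *Ddc*, *Slc6a4*, *Pitx3* and *Nr4a2* overlap other annotated genes, and those in the table had at most 58 counts over all libraries. Groups came from the sample labels, which give a genotype and a replicate number. Each library was taken as a separate embryo, since the paper describes its replicates as biological.

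The quasi-likelihood test of edgeR 4.0.16 in R 4.3.3 was used, after TMM normalization and with Benjamini-Hochberg adjustment. A gene entered the test if its normalized counts reached 10 in total over the 21 libraries and was called at an adjusted *P* below 0.10. Pairs of groups were fitted on their own libraries, the interaction on all 21. Fold changes have the first-named mutant above the fraction line. Printed normalized counts share 1 scale over the 21 libraries. Counts of different genes were not compared, since transcript lengths were not used here. Correlations of deviations from group means were tested with 100000 permutations, two-sided, shuffled over all 21 libraries and not within groups. The deviations were centred in each group and the groups differed in spread, so these *P* values are approximate and may be too small. The code was tested on simulated counts.

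The genes named are the 10 members, *Nipbl* and *Wapl*, up to 4 called genes with the smallest adjusted *P* from each list per comparison with others named beside them, and, for *Tph2*, *Slc6a3* and *Dbh*, the 5 most correlated genes. Members, lists and the *mt-Nd3* split were chosen with earlier results of these data known. Values of 1 gene of the list of monoamine synthesis, transport and breakdown are not reported here. Coordinates came from a RefSeq table for GRCm38.p6. Alternatives were DESeq2 1.42.0, its size factors, other filters, a threshold of 0.05, a joint fit of the groups, replicate number as block, the *mt-Nd3* sets, leaving out each library and, added after seeing the data, a fit of separate deletion terms and the lists without *Nipbl+/-* replicate 1 or double-heterozygote replicate 4. DESeq2 gives no adjusted *P* to genes it filters on low counts.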

Additional observations from a re-analysis of the deposited data

Results flagged for a closer look

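Each of the 10 genes was tested for a library far from the others in the *WT*, *WaplΔ/+* and double-heterozygote groups (5, 7 and 6 libraries). Of these 30 tests, of which chance flags about 1 in 20, 3 found such a library. The *Nipbl+/-* group, with 3 libraries, was too small to be tested. *Slc6a3* had 84.6 normalized counts in double-heterozygote replicate 4, where the other 5 lay between 121 and 141, and *Tph2* and *Dbh* were also lowest of their group in that library, at 112 and 60.8. That library also had a sum of peripheral ganglion genes of 178% of the *WT* mean, and its part in these values was not tested. *Dbh* had 94.1 counts in *WT* replicate 4, where the other 4 lay between 73.6 and 75.9. *Slc18a2* had 814 counts in *WT* replicate 3, where the other 4 lay between 848 and 858.

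*Dbh* lay on opposite sides of the *WT* mean in the groups with 1 deletion: all 7 *WaplΔ/+* libraries were above it and all 3 *Nipbl+/-* libraries below it, and the group means were 0.65 apart on the log2 scale. The *WT* libraries other than replicate 4, at 73.6 to 75.9, also lay below the *WT* mean of 78.7, with replicate 4 at 94.1. Each of the 10 genes was examined in this way for each pair of mutant groups. The share of all genes with such a pattern was not counted. The difference between these groups was not tested.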

How the results depend on the processing

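The lower *Nr4a2* and *Slc6a3* kept their direction in all alternatives run for *Nipbl+/-* and double-heterozygote brains against *WT*. They kept their calls in all but the high *mt-Nd3* set alone (2 libraries a group). In that set, for double heterozygotes against *WT*, 0 members and 1 of 30552 genes were called (*Nr4a2* -0.50, *Slc6a3* -0.33). Between double heterozygotes and *WaplΔ/+* brains the 2 called members became 1 with the *mt-Nd3* term and 0 within the low or the high set alone (*Nr4a2* -0.34 and -0.56), which hold fewer libraries. The number of members called when 1 library was left out ran from 2 to 5 for *Nipbl+/-* against *WT*, highest without *Nipbl+/-* replicate 2, and from 1 to 2 for double heterozygotes against *WaplΔ/+*. The number of all genes called also moves with the fit. For *Nipbl+/-* against *WT* it was 3422 of 30552 as reported and 1658 in 1 fit of all groups. It is not given here for fits without 1 library or for these alternatives of double heterozygotes against *WaplΔ/+*, so these member counts have no background beside them. The call of *Ddc* in *Nipbl+/-* brains was also lost at a threshold of 0.05, in 1 fit of all groups (log2 fold change 0.25, adjusted *P* = 0.107), with the *mt-Nd3* term (0.24, 0.133) and with separate deletion terms (0.08, 0.559), beside 0.22 as reported. Where a cause is not named it was not tested. *Fev* and *Pitx3* are limited by depth. GC content was not used here, and no correction for it was made.

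The replicate numbers gave no sign of a pairing: same-numbered libraries of different groups did not on average deviate together (mean *r* 0.0236 over 25 pairs, 7 above 0.1, against -0.00418 over 136 other pairs, 46 above 0.1). Single pairs reached an *r* of 0.45 with the same number and 0.455 with other numbers. This check cannot show shared litters or crosses, which were not used here. With the replicate number as a block, members called were 2 in *Nipbl+/-* against *WT*, where *Ddc* was lost (0.24, adjusted *P* = 0.237), 2 in double heterozygotes against *WT*, 2 against *WaplΔ/+*, and 0 in the other comparisons and the interaction. Of 30552 genes, the block left 1893 called for *Nipbl+/-* and 535 for double heterozygotes against *WT*, beside 3422 and 1001 as reported. It gave 1991 for *WaplΔ/+* against *WT* and 59 for double heterozygotes against *Nipbl+/-*, beside 677 and 2 as reported. The sign of these uncalled values changed under the block: for *WaplΔ/+* against *WT*, *Slc6a3* -0.0471 and *Pitx3* -0.0443; for double heterozygotes, *Fev* against *WT* 0.0569, *Slc6a4* 0.0352, *Slc18a2* 0.0166 and *Nr4a2* 0.0595 against *Nipbl+/-*, *Ddc* 0.00418 and *Slc18a2* -0.0095 against *WaplΔ/+*; for the interaction, *Dbh* 0.055 and *Pitx3* 0.0644.

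The other sign changes were also of uncalled values. *Tph2* in *Nipbl+/-* against *WT* became 0.00545 with DESeq2 and with its size factors, 0.00581 without a filter, 0.00339 with the filter of 1 CPM and 0.0255 in 1 fit of all groups, where *Fev* in double heterozygotes became 0.00181. The interaction of *Dbh* became 0.0115, 0.0101, 0.0061 and 0.0195 under the first 4 of these. In the high *mt-Nd3* set alone, *WaplΔ/+* against *WT* gave *Tph2* 0.0143, *Th* -0.00555 and *Slc6a3* -0.0298, and double heterozygotes *Th* -0.038 and *Slc18a2* -0.0534 against *WT* and *Slc18a2* -0.146 against *WaplΔ/+*. In the low set alone, *Nr4a2* was -0.0149 in *WaplΔ/+* against *WT*, *Fev* 0.122 in double heterozygotes against *WT* and 0.0741 against *WaplΔ/+*, and against *Nipbl+/-* *Slc6a4* was 6.7e-05, *Slc6a3* -0.0171, *Slc18a2* 0.05002 and *Nr4a2* 0.0326, with interactions of -0.108 for *Slc6a3*, 0.173 for *Dbh* and 0.0575 for *Nr4a2*. With the *mt-Nd3* term, double heterozygotes against *Nipbl+/-* gave *Slc6a4* 0.00271, *Slc6a3* -0.0147, *Slc18a2* 0.0529 and *Nr4a2* 0.0354, and *Slc18a2* -0.0318 against *WaplΔ/+*.

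Leaving out 1 library turned the sign of 20 uncalled values, whose ranges were, for *Nipbl+/-* against *WT*, *Tph2* -0.0432 to 0.0539 and *Pitx3* -0.313 to 0.455; for *WaplΔ/+* against *WT*, *Fev* -0.00169 to 0.244, *Slc6a3* -0.0289 to 0.0618 and *Nr4a2* -0.0336 to 0.0428; for double heterozygotes against *WT*, *Fev* -0.127 to 0.118; against *Nipbl+/-*, *Slc6a4* -0.124 to 0.0617, *Th* -0.0781 to 0.0151, *Slc6a3* -0.0391 to 0.216, *Slc18a2* -0.0744 to 0.0193, *Pitx3* -0.124 to 0.641 and *Nr4a2* -0.0783 to 0.00493; against *WaplΔ/+*, *Th* -0.0882 to 0.00233, *Ddc* -0.0415 to 0.0311 and *Slc18a2* -0.0254 to 0.057; and for the interaction, *Slc6a4* -0.0384 to 0.174, *Slc6a3* -0.0466 to 0.214, *Dbh* -0.0907 to 0.0867, *Pitx3* -0.274 to 0.4658 and *Nr4a2* -0.0963 to 0.0063. Of 1298 values of the 10 genes under alternatives, 1161 kept their direction and call, 107 changed sign, 23 lost and 7 gained a call. Values to which DESeq2 gave no adjusted *P* were judged by their direction alone.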

Other observations

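Among the 45 pairs of the 10 genes, deviations from the group means of *Slc6a3* and *Slc18a2* were opposed over the 21 libraries (Pearson *r* = -0.693, permutation *P* = 0.00045, adjusted over the pairs 0.0142; Spearman rho = -0.726, permutation *P* = 0.00024, adjusted 0.0108). The value was -0.631 without the 2 libraries farthest from the median of *Slc6a3*, and -0.763 and -0.68 within the 12 low and 9 high *mt-Nd3* libraries. Deviations of *Tph2* and *Dbh*, genes of different hindbrain neurons, ran together (Pearson *r* = 0.674, permutation *P* = 0.00063, adjusted 0.0142), with a weaker rank correlation (Spearman rho = 0.544, permutation *P* = 0.0117, adjusted 0.132). That *r* was 0.546 without the 2 libraries farthest from the median of *Tph2*, and 0.534 and 0.835 within the low and high *mt-Nd3* sets. By rank correlation *Slc6a4* was also opposed to *Slc18a2* (Spearman rho = -0.617, permutation *P* = 0.00353, adjusted 0.0794) and ran with *Slc6a3* (rho = 0.584, permutation *P* = 0.00624, adjusted 0.0936), with weaker Pearson values (*r* = -0.501 and 0.382, permutation *P* = 0.0226 and 0.0901, adjusted 0.255 and 0.579). Those *r* were -0.34 and 0.313 without the 2 libraries farthest from the median of *Slc6a4*, -0.612 and 0.469 within the low and -0.566 and 0.405 within the high *mt-Nd3* set. The permutations did not keep libraries within their groups, so their *P* values are approximate and may be too small. The points are whole-brain libraries, and the source of these relations was not tested.

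Over the 21 libraries and 17302 genes with at least 1 CPM, the genes whose log2 CPM was most like that of *Slc6a3* were *Mfge8* (Pearson *r* = 0.901), *Lypd1* (0.884), *Fam124a* (0.882), *Lrfn2* (0.873) and *Pcdh20* (0.872). For *Tph2* they were *Ssc4d* (0.79), *Ddo* (0.748), *Btbd19* (0.729), *2810468N07Rik* (0.729) and *Ttc25* (0.71), and for *Dbh* they were *Itgb5* (0.83), *Il10ra* (0.808), *Galnt15* (0.791), *Adra1b* (0.789) and *C1s1* (0.788). These are the highest values of a search and carry no test. On deviations from group means, *Pcdh20* stayed among the 5 nearest to *Slc6a3* (0.807), *Ssc4d*, *Ddo* and *Btbd19* among those nearest to *Tph2* (0.77, 0.721 and 0.732), and none of the 5 among those nearest to *Dbh*.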
